A study of Mus musculus with 20 samples.

Results

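Transcripts of 10 neuropeptide precursor genes were followed in nuclei of mouse spinal cord: Tac1, Tac2, Penk, Pdyn, Sst, Npy, Cck, Grp, Nmu and Gal. They were taken by gene symbol, and 10 of 10 were found among the 43629 genes of the count table. The comparison asks how the transcripts of peptide-releasing neurons differ at an acute stage of experimental autoimmune encephalomyelitis (EAE), a disease of mice in which immune cells attack brain and spinal cord myelin, and which serves as a model for multiple sclerosis. Flow cytometry had split the nuclei by NeuN, a protein found in the nuclei of most neurons. The 4 groups, of 5 libraries each, were NeuN-positive nuclei of EAE mice, NeuN-positive nuclei of healthy mice, NeuN-negative nuclei of EAE mice and NeuN-negative nuclei of healthy mice. EAE mice were taken 15 days after active immunization. The labels used here give no strain, age, sex, antigen or clinical score, and they do not say whether healthy mice received adjuvant or whether a library holds the nuclei of a single mouse. The p-values therefore measure the spread between these libraries, part of which may be technical.

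Neuropeptides are cut from larger precursor proteins, packed into dense-core vesicles and released to act on G protein-coupled receptors, more slowly and over longer distances than the fast transmitters with which they are stored. In the spinal cord they are best known from the dorsal horn, where small groups of interneurons that relay or gate pain, itch and touch are told apart by the peptide they make. In mice, Tac1, Tac2, Sst, Cck, Grp and Nmu are known mainly from excitatory dorsal horn neurons and Npy and Gal mainly from inhibitory ones, while Penk and Pdyn are found in both kinds. Spinal motor neurons and the terminals of sensory neurons hold peptides too, but the nuclei of sensory neurons lie outside the cord.

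In NeuN-positive nuclei, Tac2 and Sst were lower in EAE than in healthy mice, and 0 of the 10 precursors were higher. The call was an adjusted p under 0.05 in edgeR's quasi-likelihood test, adjusted over the 16675 genes tested, and 3.68% of those genes were called lower and 6.55% higher. All 10 precursors passed the filter on low counts. Grp passed it through the healthy libraries, since it reached 1 CPM (counts per 1e+06 counts) in 1 of 5 EAE and 5 of 5 healthy libraries. For 9 of the 10 precursors the log2 fold change was below 0, and their median was -0.68, beside -0.03 over all genes tested. By edgeR's unadjusted p, 4 of 10 precursors were under 0.05, each with a fold change below 0, beside 4814 of all 16675 genes. The groups did not overlap, with every EAE library below every healthy library, for Tac2, Sst and Grp, a pattern that 4.74% of the genes tested showed. In sorted pools of nuclei, fewer neurons of a type and less RNA per neuron cannot be told apart.

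**Figure D1:**
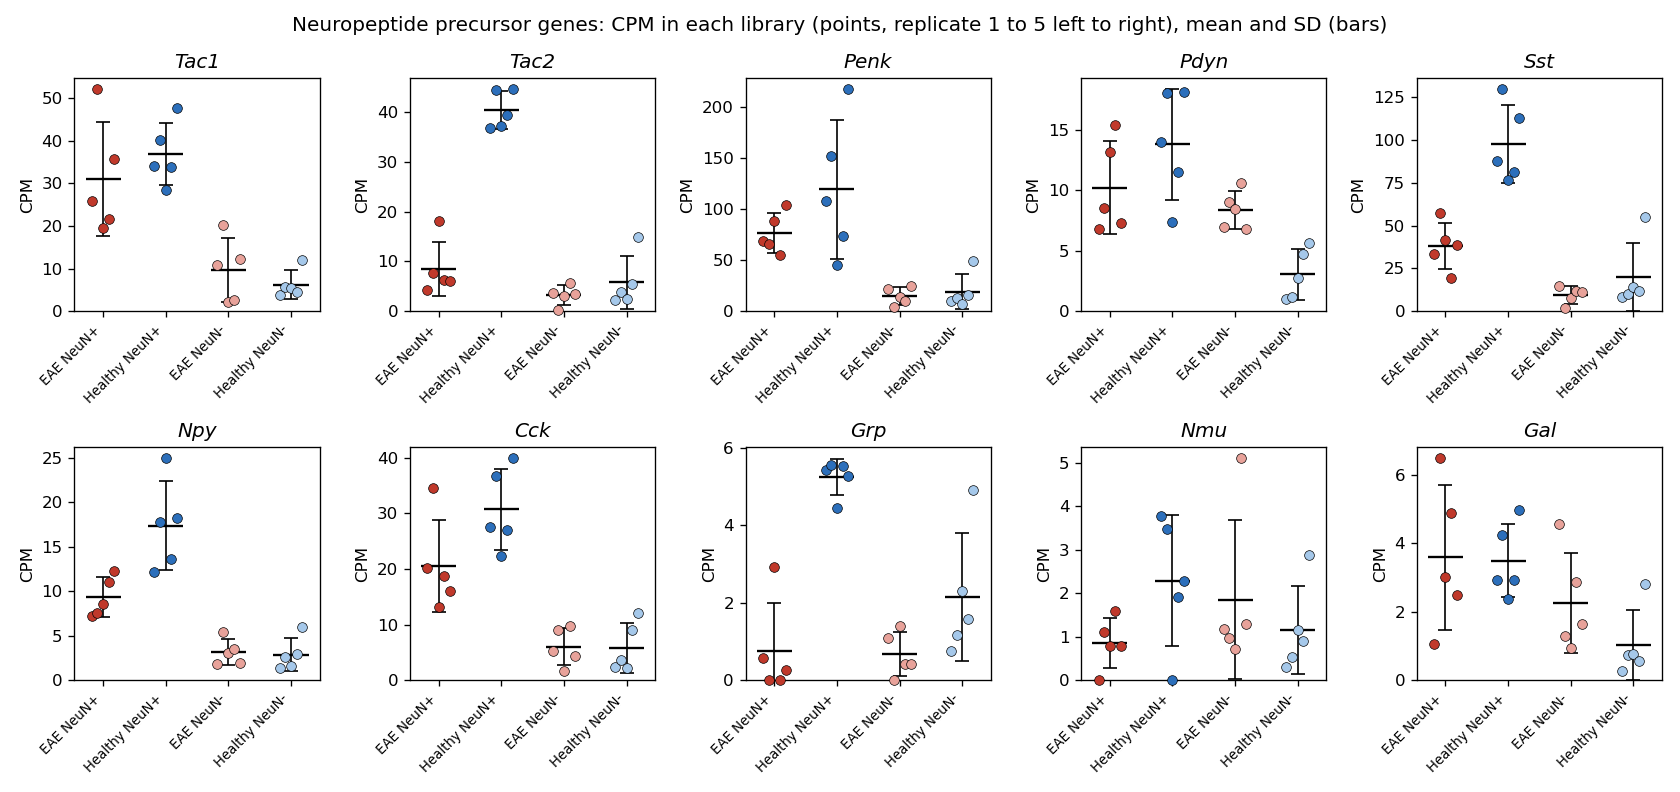
Level of each of the 10 precursors in CPM (linear axes from 0) in the 20 libraries, by group; points are libraries, in order of replicate number within a group, and bars are means with SD (n = 5), drawn down to 0 at most. In NeuN-positive nuclei, Tac2 lay at 4.34 to 18.1 CPM in EAE and at 36.8 to 44.6 CPM in healthy mice, and Grp at 0 to 2.93 CPM in EAE and 4.46 to 5.57 CPM in healthy mice.

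Some libraries stood apart. Mitochondrially encoded transcripts, which come from outside the nucleus, took 1.08 to 9.35% of counts in EAE NeuN-positive and 0.197 to 3.003% in healthy NeuN-positive libraries, with the highest shares in EAE 2, EAE 4 and healthy 3. Total counts ran from 7072200 to 18686997 in EAE NeuN-positive, from 12076860 to 30499828 in healthy NeuN-positive, from 3149209 to 15525441 in EAE NeuN-negative and from 8336330 to 37689267 in healthy NeuN-negative libraries. Among the healthy NeuN-negative libraries, replicate 5 held 165 CPM over the 10 precursors together, against 30.0 to 57.6 CPM in the other 4. The comparisons were repeated without EAE 2, EAE 4 and healthy 3. In NeuN-positive nuclei this left the same 2 precursors lower and 0 higher, with 10 of 10 log2 fold changes below 0 and a median of -0.77.

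Tac2 encodes neurokinin B, a tachykinin that acts mainly on the receptor Tacr3. Its gene lies on chromosome 10 at 127724478 to 127731768 on the forward strand of GRCm38. Its level was 4.34, 7.74, 18.1, 6.17 and 6.15 CPM in EAE and 36.8, 44.4, 37.2, 39.5 and 44.6 CPM in healthy NeuN-positive libraries. The healthy libraries lay close together, and each EAE library held less than any of them, with EAE 3 the highest of its group. The log2 fold change of -2.17 ± 0.35 (SE; 95% interval -2.91 to -1.42) had an adjusted p of 0.0012 in edgeR's quasi-likelihood test, rank 291 among the 16675 genes by p. Without EAE 2, EAE 4 and healthy 3 it was -1.99, with an edgeR adjusted p of 0.0212.

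Sst encodes somatostatin, a peptide that inhibits its target neurons. Its gene lies on chromosome 16 at 23889573 to 23890958 on the reverse strand. Sst had 33.6, 57.3, 41.7, 19.5 and 38.5 CPM in EAE and 87.5, 129.5, 76.7, 81.3 and 112.9 CPM in healthy NeuN-positive libraries. The highest EAE library lay below the lowest healthy library. Sst fell by 1.26 ± 0.28 on the log2 scale (95% interval -1.86 to -0.67), with an edgeR adjusted p of 0.0115. The change was -1.32 without EAE 2, EAE 4 and healthy 3, with an edgeR adjusted p of 0.0039. The edgeR adjusted p was 0.0603 for Sst in a fit on all 20 libraries and 0.064 with the mitochondrial share as a covariate.

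The promoter windows of these 2 genes are shown because they are the precursors called lower in NeuN-positive nuclei. Each runs from 250 bases before to 50 after the RefSeq start of the gene in GRCm38.p6, 5′ to 3′ in the gene's direction, at chr10:127724228-127724527 for Tac2 (forward strand) and chr16:23890795-23891094 for Sst (reverse strand). Capitals mark TGACGTCA, the palindromic cyclic AMP response element, which reads the same on both strands and overlaps no other motif searched.
Tac2: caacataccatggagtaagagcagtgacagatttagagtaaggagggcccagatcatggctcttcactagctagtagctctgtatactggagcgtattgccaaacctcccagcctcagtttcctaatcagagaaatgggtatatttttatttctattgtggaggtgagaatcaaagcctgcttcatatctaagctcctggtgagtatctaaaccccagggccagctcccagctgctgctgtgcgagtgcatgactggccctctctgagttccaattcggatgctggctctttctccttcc
Sst: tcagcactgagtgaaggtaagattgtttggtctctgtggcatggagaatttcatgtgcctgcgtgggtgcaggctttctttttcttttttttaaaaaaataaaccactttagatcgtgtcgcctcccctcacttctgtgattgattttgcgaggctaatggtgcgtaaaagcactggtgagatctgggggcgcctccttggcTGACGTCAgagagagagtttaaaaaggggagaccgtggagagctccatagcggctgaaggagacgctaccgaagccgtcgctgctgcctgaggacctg
The motif TGACGTCA occurred in the Sst window, with its first base at -48 from the start, and in none of the windows of Tac1, Tac2, Pdyn, Npy, Cck, Nmu and Gal. Of the 32851 promoter windows searched, 1.79% held it. TATAAA, searched on both strands, was in 0 of the 9 windows of these 8 precursors, and in 13.62% of all windows searched. No window of Penk or Grp was searched, so the motifs of these genes are not known here.

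Tac1, the other tachykinin precursor, encodes substance P and neurokinin A, the peptides that act on Tacr1. It had 25.8, 52.1, 19.6, 21.7 and 35.7 CPM in EAE and 34.1, 40.1, 28.5, 33.9 and 47.7 CPM in healthy NeuN-positive libraries. The groups overlapped, and EAE 2 held the highest level of the 10. A log2 fold change of -0.15 ± 0.29 (95% interval -0.78 to 0.48) was not called, with an edgeR adjusted p of 0.766. Within a library, the ratio of Tac2 counts to Tac1 counts does not depend on the library's scaling. It was 0.168, 0.149, 0.924, 0.285 and 0.173 in EAE and 1.08, 1.11, 1.30, 1.17 and 0.936 in healthy NeuN-positive libraries. The groups did not overlap, although EAE 3 lay just below healthy 5. Tac2 was chosen for this ratio with its fall known, so the ratio is a description, with no test. The ratio of Sst to Tac1 counts was 0.901 to 2.13 in EAE (median 1.10) and 2.37 to 3.23 in healthy libraries (median 2.57).

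**Figure D2:**
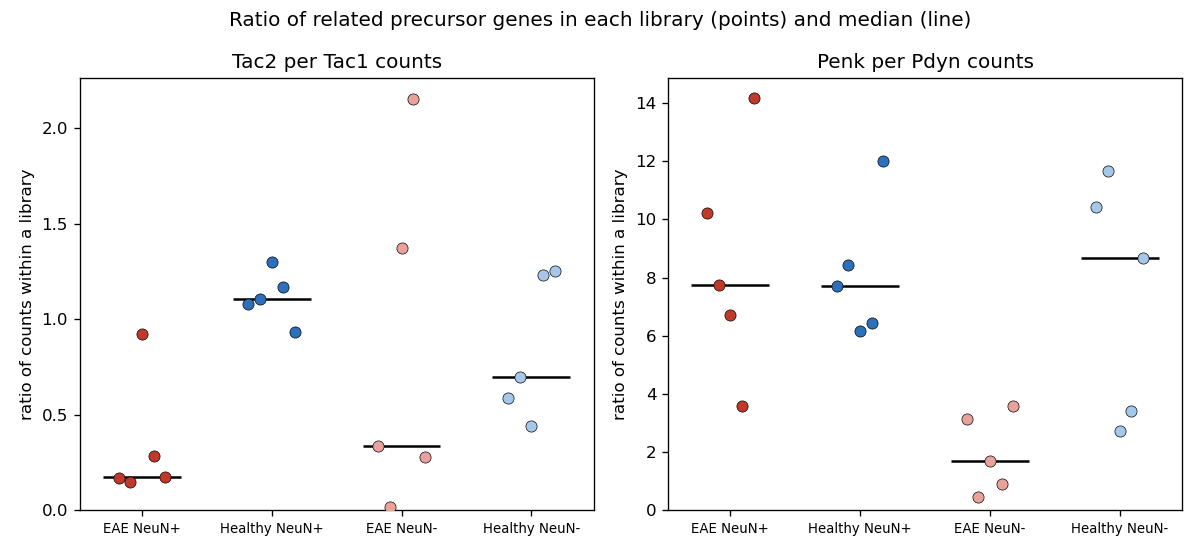
Ratios of counts between pairs of precursors within each library, for Tac2 over Tac1 and Penk over Pdyn, by group (linear axes from 0); points are libraries and lines are medians. In NeuN-positive nuclei the Tac2 to Tac1 ratio was 0.149 to 0.924 in EAE and 0.936 to 1.30 in healthy mice, while the Penk to Pdyn ratio overlapped, at 3.60 to 14.2 in EAE and 6.15 to 11.99 in healthy mice.

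Grp encodes gastrin-releasing peptide, which is known for relaying itch through neurons with its receptor Grpr. It had the lowest mean CPM of the 10 in EAE NeuN-positive nuclei, from 8, 0, 59, 0 and 4 counts, against 109, 172, 45, 81 and 151 counts in healthy NeuN-positive libraries. These counts correspond to 0.569, 0, 2.93, 0 and 0.262 CPM in EAE and 5.43, 5.57, 4.46, 5.53 and 5.28 CPM in healthy libraries. At their depth, the 2 EAE libraries at 0 (EAE 2 and EAE 4) allow up to 0.474 and 0.431 CPM, which covers counting error only. Each EAE library lay below each healthy library, and EAE 3 again held the most. Its log2 fold change of -2.60 ± 0.82 (95% interval -4.35 to -0.85) was not called, with an edgeR adjusted p of 0.0569. Without EAE 3 it was -4.30, with an edgeR adjusted p of 0.0021. Without EAE 2, EAE 4 and healthy 3 it was -1.96 (edgeR adjusted p = 0.0812). With the mitochondrial share as a covariate it was -2.11 (edgeR adjusted p = 0.165). Of 20 alternative settings, 4 called Grp lower, among them a fit blocked by replicate number, which joins EAE and healthy libraries by number alone.

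The opioid precursors were not called. Penk, which encodes the enkephalins, the main ligands of the delta opioid receptor, had 69.1, 66.0, 88.3, 55.3 and 103.8 CPM in EAE and 107.8, 152, 45.1, 74.0 and 217 CPM in healthy NeuN-positive libraries. The healthy libraries spread over a wider range than the EAE libraries and enclosed all of them. Its log2 fold change was -0.55 ± 0.34 (95% interval -1.28 to 0.18), with an edgeR adjusted p of 0.306. Pdyn, which encodes the dynorphins, ligands of the kappa opioid receptor, had 6.75, 8.53, 13.1, 15.4 and 7.33 CPM in EAE and 13.99, 18.1, 7.33, 11.5 and 18.1 CPM in healthy libraries. Both groups covered much of the same range, and the log2 fold change of -0.34 ± 0.33 (95% interval -1.05 to 0.36) had an edgeR adjusted p of 0.516. The ratio of Penk to Pdyn counts had a median of 7.74 in EAE and 7.71 in healthy NeuN-positive libraries. The Penk gene shares exon sequence with A830012C17Rik on the opposite strand, which had 15 counts in all in EAE NeuN-positive and 45 in healthy NeuN-positive libraries.

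Npy and Cck lay lower in most EAE libraries without passing the threshold. Npy encodes neuropeptide Y, which marks inhibitory dorsal horn neurons, and had 7.25, 7.58, 8.53, 11.1 and 12.3 CPM in EAE and 12.2, 17.8, 25.0, 13.6 and 18.2 CPM in healthy NeuN-positive libraries. In 4 of 5 EAE libraries its level was below every healthy library. The log2 fold change of -0.82 ± 0.29 (95% interval -1.44 to -0.19) had an adjusted p of 0.0857 in edgeR and 0.0416 with the DESeq2 Wald test. Cck encodes cholecystokinin, a peptide of excitatory neurons of the deep dorsal horn, and had 20.2, 34.6, 13.1, 18.7 and 15.97 CPM in EAE and 27.6, 36.7, 22.3, 27.0 and 39.96 CPM in healthy libraries. Here EAE 2 was the exception, and the other 4 EAE libraries lay below every healthy library. For Cck, a log2 fold change of -0.48 ± 0.30 (95% interval -1.12 to 0.16) had an edgeR adjusted p of 0.301.

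Nmu and Gal were at a few CPM in every group. Nmu encodes neuromedin U and had 0, 1.11, 0.793, 1.58 and 0.785 CPM in EAE and 3.78, 3.46, 0, 1.91 and 2.27 CPM in healthy NeuN-positive libraries. A library at 0 was found in each group, EAE 1 and healthy 3, which allow up to 0.213 and 0.297 CPM. Its log2 fold change was -1.37 ± 0.93 (95% interval -3.36 to 0.63), with an edgeR adjusted p of 0.349, and its exons overlap those of 4930432L08Rik on the opposite strand. Gal encodes galanin and had 1.07, 6.47, 3.03, 4.88 and 2.49 CPM in EAE and 2.94, 4.24, 2.38, 2.94 and 4.96 CPM in healthy libraries. EAE 1 was the lowest and EAE 2 the highest of all 10, so that the EAE libraries enclosed the whole healthy range. Its log2 fold change of 0.13 ± 0.49 (95% interval -0.92 to 1.18) had an edgeR adjusted p of 0.886 and was -0.66 without EAE 2, EAE 4 and healthy 3.

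**Figure D3:**
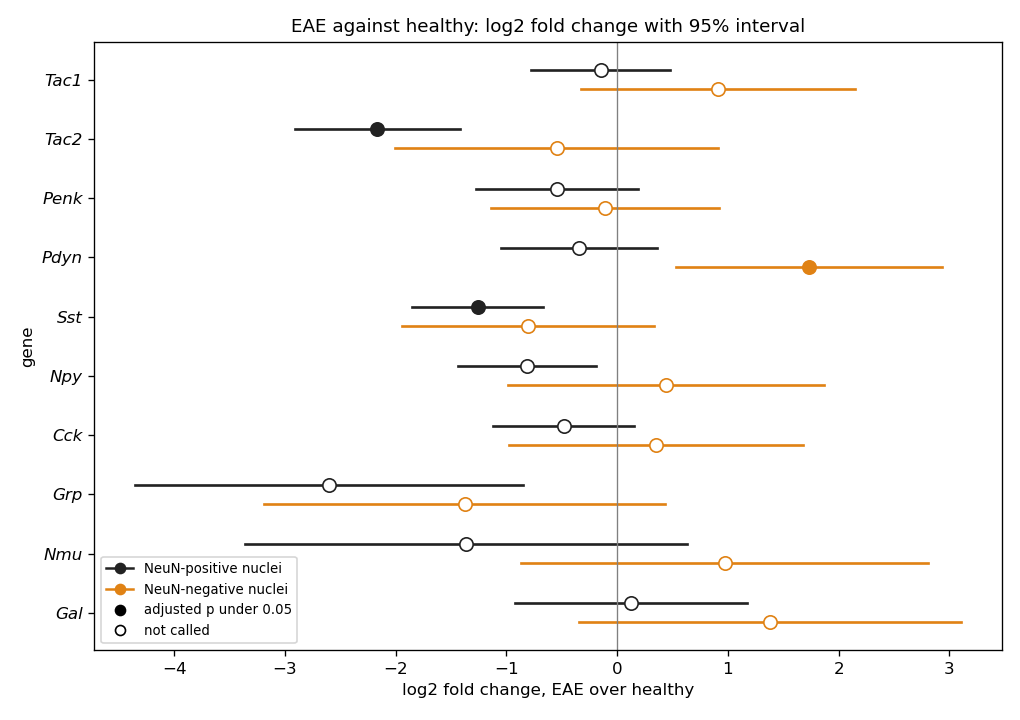
Log2 fold change, EAE over healthy, of the 10 precursors in NeuN-positive and in NeuN-negative nuclei; points are edgeR estimates and bars 95% intervals, and filled points passed an adjusted p of 0.05. Tac2 at -2.17 and Sst at -1.26 passed in NeuN-positive nuclei, and Pdyn at 1.73 passed in NeuN-negative nuclei.

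To compare precursors with each other, levels were divided by the length of their merged exons and are given as CPM per kb. In EAE NeuN-positive nuclei Sst was highest at 52.9 ± 19.0 (SD, n = 5), followed by Penk at 46.8 ± 11.9, Npy at 16.5 ± 3.94, Cck at 15.7 ± 6.37, Tac1 at 9.11 ± 3.92 and Tac2 at 6.17 ± 3.99. Gal at 4.55 ± 2.68, Pdyn at 3.54 ± 1.32, Nmu at 1.03 ± 0.70 and Grp at 0.51 ± 0.84 came last. In healthy NeuN-positive nuclei the order was Sst at 135.3 ± 31.5 CPM per kb, Penk at 73.0 ± 41.5, Npy at 30.6 ± 8.84, Tac2 at 29.4 ± 2.76, Cck at 23.5 ± 5.63 and Tac1 at 10.8 ± 2.15. The lowest there were Pdyn at 4.78 ± 1.59, Gal at 4.43 ± 1.36, Grp at 3.56 ± 0.31 and Nmu at 2.76 ± 1.81. Most neighbours in these orders overlapped. In EAE the libraries of neighbours were apart between Penk and Npy and between Pdyn and Nmu, and in healthy mice between Cck and Tac1 and between Tac1 and Pdyn. Tac2 stood 6th of 10 in EAE and 4th in healthy mice.

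Summed over the 10 precursors, levels were 154 to 241 CPM in NeuN-positive and 43.5 to 71.9 CPM in NeuN-negative nuclei of EAE mice, and 249 to 511 CPM in NeuN-positive and 30.0 to 165 CPM in NeuN-negative nuclei of healthy mice. In healthy mice, 9 of the 10 precursors were higher in NeuN-positive than in NeuN-negative nuclei, where 22.8% of the 17134 genes tested were called higher, and 0 were lower, beside 23.0% of genes. Their log2 fold changes ran from 1.31 ± 0.46 for Grp (edgeR adjusted p = 0.0341) to 2.84 ± 0.47 for Tac2 (edgeR adjusted p = 0.00037). Nmu was not called at 0.996 ± 0.82 (edgeR adjusted p = 0.354). In EAE mice, 5 of the 9 precursors tested were higher in NeuN-positive nuclei, where 15.5% of the 17982 genes tested were called higher, and Grp was too low to test. These were Penk at 2.30 ± 0.39, Sst at 1.93 ± 0.43, Cck at 1.66 ± 0.48, Tac1 at 1.57 ± 0.53 and Npy at 1.46 ± 0.54, with edgeR adjusted p of 0.00035 to 0.0471. In healthy mice the groups did not overlap, with NeuN-positive above NeuN-negative, for 6 precursors (16.6% of genes tested), and in EAE mice for 4 (12.2% of genes tested). The call of Npy in EAE mice was lost in 10 of 19 alternative settings and that of Tac1 in 3. In healthy mice the call of Grp was lost in 9 of 19 and that of Gal in 3. Tac2 was at 1.31 ± 0.64 (edgeR adjusted p = 0.128) and Pdyn at 0.19 ± 0.42 (edgeR adjusted p = 0.757) between the sorts of EAE mice. The sort comparisons share libraries with the EAE comparisons and are not independent of them.

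**Figure D4:**
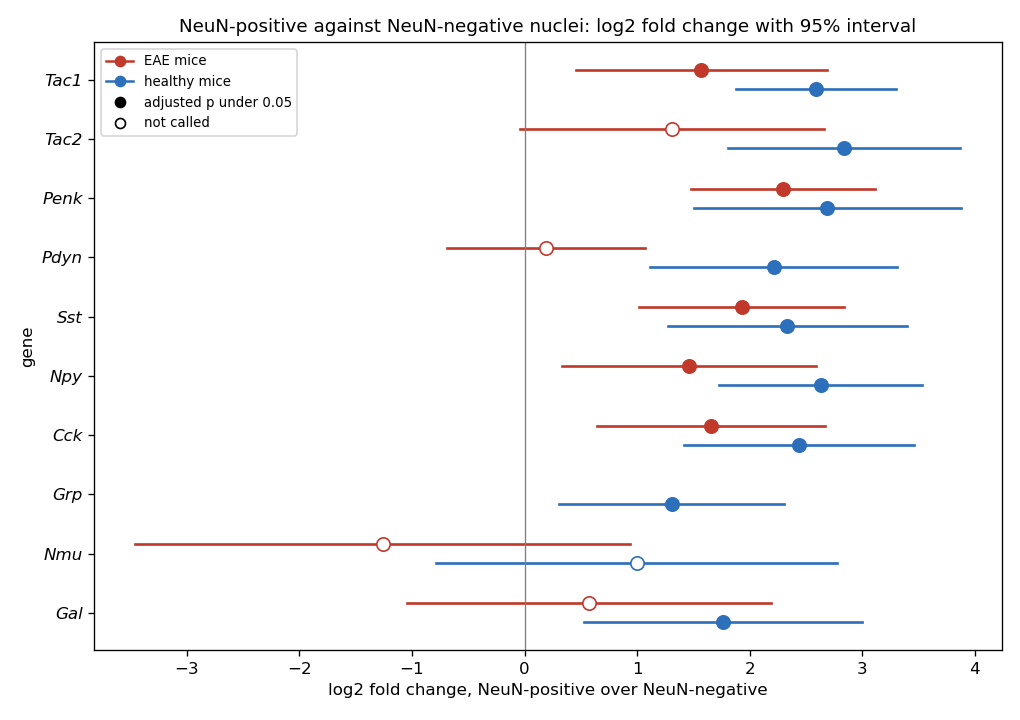
Log2 fold change, NeuN-positive over NeuN-negative nuclei, of the precursors in EAE and in healthy mice; points are edgeR estimates and bars 95% intervals, and filled points passed an adjusted p of 0.05. In EAE mice 5 of 9 precursors passed and in healthy mice 9 of 10, all above 0; Grp was too low to test in EAE.

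Among NeuN-negative nuclei, Pdyn was higher in EAE, and it was the only precursor called of 10, beside 15.1% of the 17604 genes called higher and 12.6% called lower. Its level was 6.97, 8.999, 8.42, 10.6 and 6.80 CPM in EAE and 0.962, 1.13, 2.70, 4.77 and 5.63 CPM in healthy NeuN-negative libraries. Each EAE library lay above each healthy library, as for 7.13% of the genes tested. In log2 terms Pdyn changed by 1.73 ± 0.57 (95% interval 0.53 to 2.93), with an edgeR adjusted p of 0.0328. Without EAE 2, EAE 4 and healthy 3 it was 1.48 (edgeR adjusted p = 0.076), and with the mitochondrial share as a covariate 0.81 (edgeR adjusted p = 0.611). In the fit without a count filter Pdyn was at 1.29 and not called (edgeR adjusted p = 0.0944), and Sst was called lower, at -1.21 (edgeR adjusted p = 0.0465). Scaled to neuron markers, Pdyn was at 1.97 (edgeR adjusted p = 0.0509). It also lost the call without EAE NeuN-negative 4 or 5 or healthy NeuN-negative 1 or 2, at edgeR adjusted p of 0.0569 to 0.103. Other measures moved with this comparison. Mitochondrially encoded transcripts took 2.18 to 14.6% of counts in EAE and 0.367 to 4.51% in healthy NeuN-negative libraries. Of 10 oligodendrocyte markers 5 were lower in EAE and 0 higher, with a median log2 fold change of -1.285. Their summed level overlapped, at 31597 to 112269 CPM in EAE and 39948 to 69874 CPM in healthy libraries. Of 10 astrocyte markers 1 was lower and 0 higher, with a median log2 fold change of -0.64. Microglia and macrophage markers summed to 1457 to 4707 CPM in EAE and 628 to 773 CPM in healthy libraries (11 of 15 tested higher), T cell markers to 133 to 310 CPM in EAE and 5.91 to 15.05 CPM in healthy libraries (12 of 12 higher), and neutrophil markers to 120.4 to 496 CPM in EAE and 84.9 to 133.6 CPM in healthy libraries (5 of 6 higher). The part of these markers in the level of Pdyn was not tested. T cell and neutrophil markers could pass the count filter through the EAE libraries alone, so their counts of genes called are a description. The ratio of Penk to Pdyn counts was 0.464 to 3.57 in EAE (median 1.69) and 2.71 to 11.7 in healthy NeuN-negative libraries (median 8.67), which overlapped. Tac2, Sst and Grp had log2 fold changes of -0.55 ± 0.69, -0.81 ± 0.54 and -1.38 ± 0.86 there, with edgeR adjusted p of 0.576, 0.269 and 0.235. The levels of Tac2 and Sst in healthy NeuN-negative replicate 5, at 15.0 and 55.0 CPM, were the highest of that group. Without that replicate, the log2 fold change of Tac2 was 0.035.

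The EAE effect in NeuN-positive nuclei was set against that in NeuN-negative nuclei as an interaction over all 20 libraries. By edgeR, 0 of the 10 precursors were called, beside 2.56% of the 20444 genes tested, and 1 precursor had an unadjusted p under 0.05, beside 3724 of all genes tested. The DESeq2 Wald test called 1 precursor and 1511 genes, and limma voom with quality weights called 6 precursors and 4930 genes, with each of these precursors lower. The difference was -1.89 ± 0.62 for Pdyn (edgeR adjusted p = 0.0944), -1.42 ± 0.70 for Tac2 (edgeR adjusted p = 0.280) and -0.30 ± 0.65 for Sst (edgeR adjusted p = 0.852). The changes of Tac2, Sst and Pdyn are therefore not shown by edgeR to differ between the sorts.

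Of the 21 peptide receptor genes listed and found, 16 were tested in NeuN-positive nuclei, with a median log2 fold change of -0.29. Of these, 1 was lower in EAE, beside 3.68% of all genes tested. The receptor called was Tacr3, the receptor of neurokinin B, at 1.64, 0.316, 1.59, 1.29 and 2.23 CPM in EAE and 4.28, 4.37, 2.77, 4.17 and 8.01 CPM in healthy libraries. The groups did not overlap, and the log2 fold change was -1.63 ± 0.49 with an edgeR adjusted p of 0.0479, a call lost in 12 of 21 alternative settings. The somatostatin receptor Sstr2 had 3.41, 3.63, 4.56, 4.02 and 2.55 CPM in EAE and 5.72, 7.15, 9.91, 7.37 and 7.03 CPM in healthy libraries, also without overlap. Its log2 fold change of -0.95 ± 0.32 was not called (edgeR adjusted p = 0.0745), nor were those of Sstr1 (-1.20 ± 0.998) and Sstr3 (0.40 ± 0.38), and Sstr4 was too low to test. In NeuN-negative nuclei 4 of 15 receptors tested were higher in EAE, beside 15.1% of all genes: the mu, delta and kappa opioid receptors Oprm1 (log2 fold change 3.98 ± 1.15), Oprd1 (3.36 ± 1.07) and Oprk1 (1.76 ± 0.62), and Sstr2 (2.58 ± 0.84), with edgeR adjusted p of 0.0182 to 0.0444. Oprm1 had its highest EAE level, 31.8 CPM, in EAE NeuN-negative 2, the shallowest library of all. Without that library none of these 4 was called: Oprm1 was at 2.24 (edgeR adjusted p = 0.133), and the edgeR adjusted p was 0.126 for Oprd1, 0.0779 for Oprk1 and 0.162 for Sstr2. With the mitochondrial share as a covariate Oprm1 was at 0.54 (edgeR adjusted p = 0.836) and the other 3 were not called. Without EAE 2, EAE 4 and healthy 3, Oprm1 was called, at 2.98 (edgeR adjusted p = 0.031), and the other 3 were not. Oprd1 reached 1 CPM in 3 of 5 EAE and 0 of 5 healthy NeuN-negative libraries. Oprm1 had 1.47 to 31.8 CPM in EAE and 0.051 to 2.19 CPM in healthy NeuN-negative libraries. At these levels Oprm1 and Oprd1 could pass the count filter mainly through the EAE libraries. The count of 4 receptors higher is therefore a description.

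Among 16 genes for precursor cleavage and dense-core vesicles, 15 were tested in NeuN-positive nuclei, with a median log2 fold change of -0.57. Of these, 2 were lower in EAE and 0 higher, beside 3.68% and 6.55% of all genes tested. Chgb, a granin of the vesicle core, had 67.7, 26.4, 111.6, 43.1 and 48.4 CPM in EAE and 199.2, 200.1, 72.0, 122.5 and 218.7 CPM in healthy libraries, a log2 fold change of -1.37 ± 0.36 (edgeR adjusted p = 0.0284). Scg5, the chaperone of the convertase that Pcsk2 encodes, changed by -0.93 ± 0.25 (edgeR adjusted p = 0.0305). For both genes healthy 3 was the lowest healthy library and lay below EAE 3, and their calls were lost in 10 and 11 of 21 alternatives. The summed level of the list was 1963 to 2483 CPM in EAE and 3036 to 3391 CPM in healthy libraries, without overlap. Of 20 other peptide precursors, 16 were tested and 1 was lower, beside 3.68% of all genes tested. This was Pnoc, the precursor of nociceptin, with 4.55, 6.79, 5.55, 3.45 and 2.42 CPM in EAE and 10.95, 17.7, 8.42, 11.6 and 16.8 CPM in healthy libraries. Pnoc changed by -1.43 ± 0.35 (edgeR adjusted p = 0.0204), and its call was lost in 4 of 21 alternatives: without EAE 1 (edgeR adjusted p = 0.0507), without healthy 2 (0.0673), in the fit on all 20 libraries (0.0553) and with the mitochondrial covariate (0.114). Npff, the precursor of neuropeptide FF, had 1.56, 0, 7.74, 0.287 and 1.05 CPM in EAE and 13.1, 12.8, 9.41, 9.42 and 8.74 CPM in healthy libraries and was not called, at -2.20 ± 0.75 (edgeR adjusted p = 0.0756); it is named because its pattern resembles that of Grp, after its values were seen. In NeuN-negative nuclei Npff was lower in EAE, at -2.04 ± 0.57 (edgeR adjusted p = 0.0158). Its healthy level there was 11.2 to 24.6 CPM, beside 8.74 to 13.1 CPM in NeuN-positive nuclei. Grp differed in this, being called higher in healthy NeuN-positive than in healthy NeuN-negative nuclei. For Grp these groups overlapped, and the call was lost in 9 of 19 alternatives. Of the 16 processing genes tested in NeuN-negative nuclei, 2 were higher in EAE and 1, Scg5, was lower, beside 15.1% and 12.6% of all genes. Scg5 changed by -2.02 ± 0.52 there (edgeR adjusted p = 0.0099), a call kept in 20 of 21 alternatives.

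**Figure D5:**
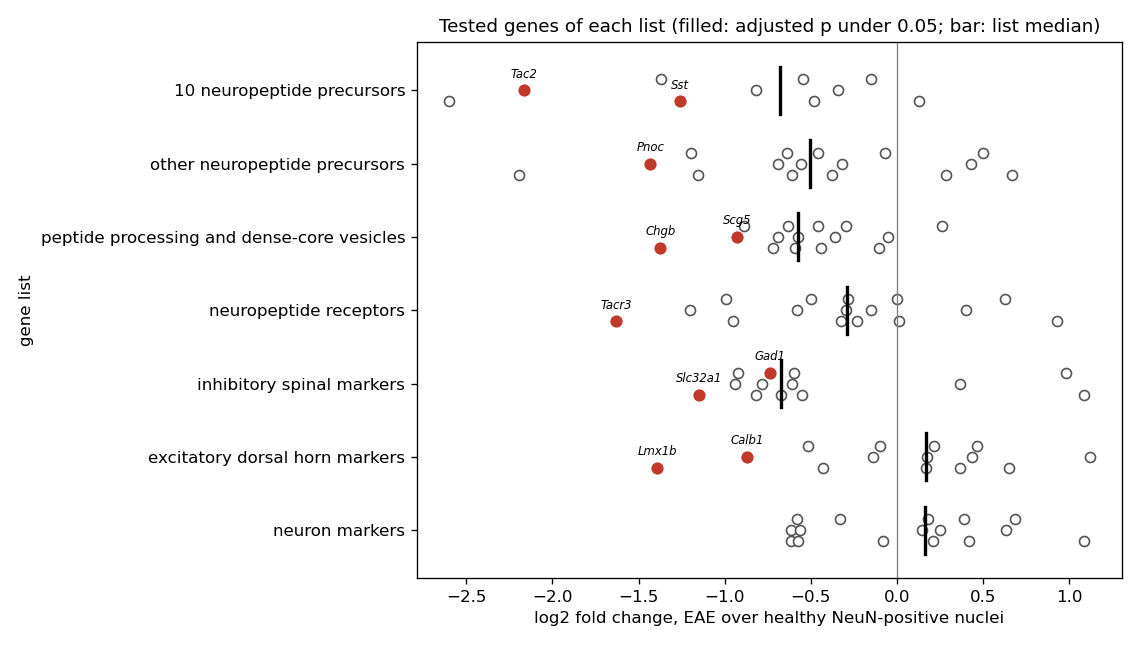
Log2 fold change, EAE over healthy, of single genes in NeuN-positive nuclei for the 10 precursors and the lists of other precursors, processing genes, receptors and neuronal markers; points are genes tested, filled points passed an adjusted p of 0.05 and bars are medians. Medians lay at -0.68 for the 10 precursors, -0.57 for processing genes, -0.68 for inhibitory, 0.17 for excitatory and 0.16 for neuron markers.

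Genes that mark the neurons known to make these peptides were compared in the same nuclei. Of 14 excitatory dorsal horn markers tested, 6 had a log2 fold change below 0, the median was 0.17, and the summed level was 545 to 957 CPM in EAE (median 731) and 565 to 1010 CPM in healthy libraries (median 604). Of these markers 0 were higher and 2 were lower in EAE, beside 6.55% and 3.68% of all genes tested. The 2 were the transcription factor gene Lmx1b at -1.39 ± 0.29 (edgeR adjusted p = 0.0075) and Calb1 at -0.87 ± 0.25 (edgeR adjusted p = 0.0392). Without EAE 2, EAE 4 and healthy 3 they were at -1.09 and -0.54, with edgeR adjusted p of 0.0515 and 0.123. Lmx1b had 16.6, 9.95, 33.7, 16.5 and 14.5 CPM in EAE and 57.4, 56.6, 52.0, 41.9 and 44.1 CPM in healthy libraries, without overlap and with EAE 3 again the highest of its group. Slc17a6, the vesicular glutamate transporter of most excitatory spinal neurons, was at 108.8 ± 34.03 CPM in EAE and 103.2 ± 30.3 CPM in healthy libraries (SD, n = 5 each; edgeR adjusted p = 0.700). Of 13 inhibitory markers, 10 were below 0, with a median of -0.68 and a summed level of 419 to 588 CPM in EAE and 613 to 1066 CPM in healthy libraries. Among them Slc32a1 and Gad1, which serve the vesicle loading and the synthesis of GABA, were lower, at -1.15 ± 0.31 and -0.73 ± 0.21 (edgeR adjusted p = 0.0307 and 0.0382). The call of Calb1, Slc32a1 and Gad1 was each lost in 10 or more of 21 alternatives. Of 16 neuron markers, 0 were called by edgeR, 4 had an unadjusted p under 0.05, and their summed level was 41599 to 69453 CPM in EAE and 42290 to 61860 CPM in healthy libraries. Most of this sum came from Meg3 and Snhg11. Without them it was 5235 to 8104 CPM in EAE and 5948 to 8856 CPM in healthy libraries. Scaled to all these markers, the log2 fold change was -2.24 for Tac2 and -1.36 for Sst (edgeR adjusted p = 0.0047 and 0.022). Scaled to them without Meg3 and Snhg11, it was -2.10 and -1.28 (edgeR adjusted p = 0.0092 and 0.0418).

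Markers of immune and glial cells moved with the comparison. Of 15 microglia and macrophage markers tested in NeuN-positive nuclei, 13 were higher in EAE, among them C1qc at a log2 fold change of 4.45 ± 0.36 (edgeR adjusted p = 9.96e-06), and their summed level was 546 to 2074 CPM in EAE and 35.0 to 81.0 CPM in healthy libraries. T cell markers summed to 24.0 to 101 CPM in EAE and 6.85 to 13.3 CPM in healthy libraries (6 of 7 tested higher). Neutrophil markers summed to 16.4 to 132 CPM in EAE and 1.75 to 6.64 CPM in healthy libraries (5 of 5 tested higher), with Cxcr2 at 0 in every healthy library. At these healthy levels, T cell and neutrophil markers could pass the count filter through the EAE libraries alone. Their counts of genes called are therefore a description. Oligodendrocyte markers summed to 10760 to 98027 CPM in EAE and 3629 to 44259 CPM in healthy libraries (2 of 10 higher), and astrocyte markers to 664 to 1497 CPM and 479 to 804 CPM (2 of 10 higher). Of 7 primary sensory neuron markers tested, 1, Th, was lower in EAE, at -1.92 ± 0.43 (edgeR adjusted p = 0.0135). Over all genes tested, 6.55% were called higher and 3.68% lower. The part of these markers in the levels of the precursors was not tested.

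The genes whose levels were most like those of Tac2 over the 10 NeuN-positive libraries, by Pearson correlation of log2 CPM among 16037 genes with a mean of at least 1 CPM, were Kif3c (r = 0.990), Fuz (r = 0.988) and Fam163b (r = 0.978). With the group means removed, the correlations over the same libraries were 0.926, 0.955 and 0.864. These libraries fall into an EAE and a healthy group and share depth and scaling, so the values are a description.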

How the data were processed

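Polyadenylated RNA of NeuN-sorted spinal cord nuclei was purified on RNeasy columns and sequenced from Illumina TruSeq libraries, per the labels' protocols. A deposited table holds unnormalized counts per gene for all 20 libraries. STAR 2.4 and DESeq2 are named as tools and GRCm39 and mm10 as builds, per the submitters' processing notes. How reads were counted, with which annotation and strand setting, is not given in the sources used here. Reads of genes that overlap on opposite strands cannot be told apart. Positions and exon lengths were taken from the GENCODE annotation of GRCm38 by gene identifier.

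Each comparison was fitted on its own 10 libraries over all genes with edgeR 4.0.16 in R 4.3.3 (filterByExpr, TMM, robust quasi-likelihood test, Benjamini-Hochberg adjustment over the genes tested, called under 0.05), and the interaction on all 20. CPM was scaled with TMM over the 20 libraries. A count of 0 allows up to 3 counts, which covers counting error only. The 10 precursors, the lists, the rule for named genes and the alternatives were chosen with earlier results of these data known. That rule names every precursor, up to 3 genes higher and 3 lower by p from each list, and receptors of called precursors. Genes of the immune and glial lists are given as counts. Of 177 list entries, 176 were found; Galr3 is not analysed here. Alternatives were DESeq2 1.42.0 size factors, the DESeq2 Wald test, limma 3.58.1 voom, other count filters, a fit on all libraries, scaling to neuron markers, the replicate block, the mitochondrial share as a covariate, and libraries left out. Scaling without Meg3 and Snhg11 was added after seeing the data. The pipeline was tested on simulated data. The closest pair of libraries in a group, healthy NeuN-positive 1 and 2, had a chi-square of 11.1 per gene, and 0 pairs were identical. Healthy 1 and 2 were also the closest pair among the healthy NeuN-negative libraries, at 16. Each library was counted as a sample, although differing counts cannot show that libraries come from separate mice.

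Titles number the libraries 1 to 5 in each group. Deviations from the group means of same-numbered NeuN-positive and NeuN-negative libraries correlated at 0.101 to 0.345 in EAE and 0.267 to 0.727 in healthy mice, all over 0.1, which is the limit set for pairing. Healthy NeuN-positive 2 correlated more with a NeuN-negative library of another number (0.281) than with its own (0.267). Some same-numbered EAE and healthy libraries also passed the limit, at up to 0.253. Passing it therefore does not show that libraries share a mouse. The sort and interaction values given are from fits without a replicate block, and the block was run as an alternative.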

Additional observations from a re-analysis of the deposited data

Results flagged for a closer look

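Of the 40 combinations of precursor and group, 9 held a library far from the other 4 (gap over range above 0.71). For independent, normally distributed values chance flags about 1 in 20. These combinations share libraries, and 5 of the 9 flags fell on healthy NeuN-negative replicate 5, so that rate is not a fair yardstick for them. Healthy NeuN-negative replicate 5 was high for Tac1 (12 CPM), Tac2 (15.0 CPM), Penk (48.8 CPM), Sst (55.0 CPM) and Gal (2.80 CPM). Its neuron markers other than Meg3 and Snhg11 summed to 3494 CPM, beside a median of 1590 CPM over its group; the part of these in the precursor levels was not tested.

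EAE NeuN-positive replicate 3 was high for Tac2 (18.1 CPM) and Grp (2.93 CPM), although it lay below every healthy NeuN-positive library for both. Healthy NeuN-positive replicate 3 was low for Grp at 4.46 CPM. EAE NeuN-negative replicate 4 was high for Nmu at 5.10 CPM.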

How the results depend on the processing

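In NeuN-positive nuclei, Tac2 was called in 21 of 21 alternatives (log2 fold change -2.76 to -1.99, adjusted p 1.28e-07 to 0.0212), and Sst lost the call in a fit on all libraries and with the mitochondrial covariate. Beside 2 precursors called there, voom called 9 (and 7705 genes against 1705), the fit on all libraries 1, the mitochondrial covariate 1 (694 genes), and leaving out each library 2 to 3. Beside 1 called in NeuN-negative nuclei (Pdyn, higher), the fit without a filter also called 1, but this was Sst, lower (-1.21, adjusted p = 0.0465), voom called 2, and scaling to neuron markers, omission of EAE 2, EAE 4 and healthy 3, and the mitochondrial covariate 0, with 0 to 1 over libraries left out. Leaving out each library gave 3 to 5 between the sorts of EAE mice (3 without EAE NeuN-negative 4 or EAE NeuN-positive 5) and 7 to 9 in healthy mice. In the interaction, the DESeq2 Wald test called 1 and voom 6. The cause of these differences was not tested. EAE and healthy numbers correlated at -0.322 to 0.224 in NeuN-positive and -0.289 to 0.253 in NeuN-negative nuclei and share only a number. The replicate block called 3, 1, 5, 9 and 0 precursors in the NeuN-positive, NeuN-negative, EAE sort, healthy sort and interaction comparisons, adding Grp (-3.71, adjusted p = 0.0407) in NeuN-positive nuclei, where it called 1149 genes, and it changed no other call of a precursor. In the EAE against healthy and interaction fits, the block joined EAE and healthy libraries by number alone.

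Some uncalled values changed sign. In NeuN-positive nuclei Gal was -1.06 by voom (adjusted p = 0.0304), -0.079 without a filter, -0.051 with the block, -0.48 with the mitochondrial covariate, -0.66 without EAE 2, EAE 4 and healthy 3, and -0.23 to 0.36 over libraries left out (below 0 without EAE 2 or EAE 4), and Penk was 0.23 with the covariate. In NeuN-negative nuclei voom gave 0.10 for Tac2, 0.73 for Penk and 0.23 for Sst. No filter gave -0.064 for Npy and -0.21 for Cck, the fit on all libraries -0.012 for Cck, and scaling without Meg3 and Snhg11 0.22 for Penk. Without EAE 2, EAE 4 and healthy 3, Penk was 0.10, Npy -0.24 and Cck -0.62. The covariate gave -0.44 for Tac1, 0.0066 for Penk, -0.26 for Npy, -1.38 for Cck, -0.78 for Nmu and -0.14 for Tacr3. Over libraries left out, Penk was -0.39 to 0.46, Tac2 -0.91 to 0.035 and Cck -0.0073 to 0.66. Between the sorts of EAE mice Gal was -0.19 by voom and -0.11 without EAE 2, EAE 4 and healthy 3. In the interaction Penk was -0.98 to 0.081 over libraries left out. Of 1473 alternative values of single genes, 1261 kept direction and side of the threshold, 147 lost the call, 34 gained it and 31 changed sign. Grp and Nmu rest on few counts, with 71 and 46 in all EAE NeuN-positive libraries.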
